A study of Rattus norvegicus with 4 samples.

Results

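The genes described here encode the enzymes and supply proteins of ovarian steroid synthesis: Star, Cyp11a1, Hsd3b1, Cyp17a1, Cyp19a1, Hsd17b1, Lhcgr, Scarb1, Srd5a1 and Fdx1. They were taken as every array probe set (a group of short probes for 1 transcript) whose platform annotation gives exactly 1 of these symbols. Of the 10 genes, 9 had such a probe set, and together they had 15 of the 31042 probe sets on the array. Srd5a1, which reduces testosterone to dihydrotestosterone, had none and was not analysed here. A further probe set that carries Hsd3b1 together with other symbols was left out.

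The samples were 2 of ovaries cultured with GDNF (glial cell line-derived neurotrophic factor, a secreted ligand of the Ret receptor and its co-receptor Gfra1) and 2 of ovaries cultured with no added factor. Whole ovaries of 4-day-old rat pups were kept for 2 days in organ culture, and each sample was RNA from 6 to 10 pooled ovaries on 1 Affymetrix array. Both groups were kept in the same medium with insulin, transferrin, ascorbic acid and albumin, so insulin was present in controls too. Groups were taken from the titles and descriptions, because the treatment protocol in the labels has the same wording for all 4 samples and speaks of no factor; the dose of GDNF and the rat strain are not given in the sources used here. Whether replicates are from different litters or days is not labelled, and p-values therefore cover no more than the spread of these 4 samples, part of which may be technical.

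Steroid synthesis starts from cholesterol. Scarb1 takes cholesterol up from high-density lipoprotein, Star carries it to the inner mitochondrial membrane, and Cyp11a1, fed with electrons by the ferredoxin Fdx1, cuts its side chain to give pregnenolone. Hsd3b1 turns pregnenolone into progesterone, Cyp17a1 makes androgen precursors in theca and interstitial cells, and Cyp19a1 (aromatase) and Hsd17b1 make estradiol in granulosa cells. Lhcgr, the luteinizing hormone receptor, drives the pathway through cyclic AMP in older ovaries. At this age most rat follicles are primordial and have no theca layer.

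The upstream sequences of Hsd3b1, Cyp11a1 and Fdx1 are shown because Nr5a1 and Nr5a2, the nuclear receptors that bind a TCAAGGTCA element in steroidogenic promoters, are among the related genes measured below. The sequences are from RefSeq on build GRCr8, the 250 bases upstream of each gene's annotated start, 5′ to 3′ on the gene's strand. Capitals mark AGGTCA and TCAAGG on either strand, the latter read as CCTTGA on the opposite one.
Hsd3b1, chr2:188864695-188864944, minus strand: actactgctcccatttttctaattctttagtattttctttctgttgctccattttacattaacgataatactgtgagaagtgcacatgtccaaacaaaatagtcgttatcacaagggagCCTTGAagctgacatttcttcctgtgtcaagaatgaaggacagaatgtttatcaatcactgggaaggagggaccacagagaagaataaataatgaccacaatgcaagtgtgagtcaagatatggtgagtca
Cyp11a1, chr8:67318415-67318664, plus strand: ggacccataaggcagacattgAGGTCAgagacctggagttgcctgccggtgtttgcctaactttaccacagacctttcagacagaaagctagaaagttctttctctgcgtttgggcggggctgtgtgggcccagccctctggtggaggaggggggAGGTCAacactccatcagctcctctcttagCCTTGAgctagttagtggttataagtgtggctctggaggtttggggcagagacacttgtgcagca
Fdx1, chr8:61183646-61183895, minus strand: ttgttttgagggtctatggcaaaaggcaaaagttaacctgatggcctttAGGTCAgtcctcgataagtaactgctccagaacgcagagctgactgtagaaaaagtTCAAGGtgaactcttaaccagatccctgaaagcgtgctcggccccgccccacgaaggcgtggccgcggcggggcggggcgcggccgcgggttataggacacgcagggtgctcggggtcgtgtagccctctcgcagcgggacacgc
Cyp11a1 held AGGTCA at 229 and 95 bases before the start and CCTTGA at 65. Hsd3b1 held CCTTGA alone, at 131 bases. Fdx1 held AGGTCA at 201 and TCAAGG at 145. The window listed for Lhcgr reaches 54 bases into the annotated gene and is not shown. The window of Srd5a1 held neither AGGTCA nor TCAAGG on either strand and is not shown either. No window was available for Star, Cyp17a1, Cyp19a1, Hsd17b1 and Scarb1. Searched on both strands, AGGTCA was in 14.1% and TCAAGG in 12.6% of the 33469 upstream windows of the same length. In the full element, which was in 0.388% of the windows and in none of the 3 shown, they overlap by 3 letters. A match describes letters in this window and is not evidence of binding.

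The values are linear MAS5 signals, which the authors' software scaled to the same trimmed mean on each array. The median signal was 41.1 and 36.7 in GDNF samples and 40 and 38.6 in control samples. With so few arrays every value is imprecise. Marker genes of ovarian cells were present: the oocyte marker Gdf9 had 902.2 and 1000.5 in GDNF against 545 and 706.1 in control samples, and the granulosa marker Foxl2 had 686.1 and 690.2 against 591 and 624.3. Summed over the 5 oocyte markers with a probe set, of 10 listed, the signal was 5098 and 6426 in GDNF and 3840 and 4799 in control samples. Over 8 of 9 surface epithelium markers it was 5901 and 5407 in GDNF and 7376 and 6171 in control samples, and over 7 of 7 macrophage and leukocyte markers 347.4 and 271.8 against 402.1 and 329.3. Over 6 of 7 endothelial markers it was 1136 and 1081 in GDNF and 1256 and 1223 in control samples. Bright genes weigh most in such sums: Kdr alone had 817.9 and 777.9 in GDNF and 902.6 and 920.4 in control samples. Groups did not overlap for 4 of the 5 oocyte markers tested (GDNF higher), beside 13.8% of all genes tested. With GDNF lower, they did not overlap for 4 of 8 surface epithelium, 2 of 6 macrophage and leukocyte and 1 of 5 endothelial markers tested. The share of all genes tested was 18.1% on that side. The part of these sums in the results below was not tested. In whole ovaries fewer cells of a type and less RNA per cell cannot be told apart.

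In GDNF ovaries Hsd3b1 had a 1.42-fold higher mean signal than in control ovaries, and Scarb1 a mean 0.78 times that of control in its brighter probe set. These were the 2 of the 9 tested probe sets of the listed genes whose groups did not overlap. Of all probe sets tested, 30.0% had no overlap. Hsd17b1 had the largest difference in means among those tested, 1.84-fold higher with GDNF, with groups that overlapped. For Star, Cyp17a1, Fdx1 and Lhcgr the difference was below its standard error, and the probe sets of Cyp11a1 and Cyp19a1 were too dim to be tested. No member passed the test.

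Signals were compared as log2(signal + 1) with limma over the 18625 probe sets that passed a filter on the mean, set at the 40th percentile (a signal near 21.4). Of the 15 member probe sets 9 passed this filter, for 7 genes, and 6 lay below it. No member probe set had a limma adjusted p below 0.05 (0 of 9), and the background was the same, with 0.0% of all probe sets called. At an unadjusted p below 0.05 there was 1 member, Hsd3b1, where 2.73% (508) of all probe sets tested had such a p. Of the 9, 5 had the higher mean in GDNF samples (48.5% of all tested did) and 4 in control samples, and their median log2 fold change was 0.044, where that of all probe sets tested was -0.0067. Groups did not overlap with GDNF higher in 1 of the 9, against 13.4% of all tested, and with GDNF lower in 1, against 16.6%, or in 2 of 9 against 30.0% in either direction. The members' counts are thus near the background. An exact permutation test of 2 samples against 2 cannot give a two-sided p below 0.333, so it cannot separate any single gene.

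**Figure D1:**
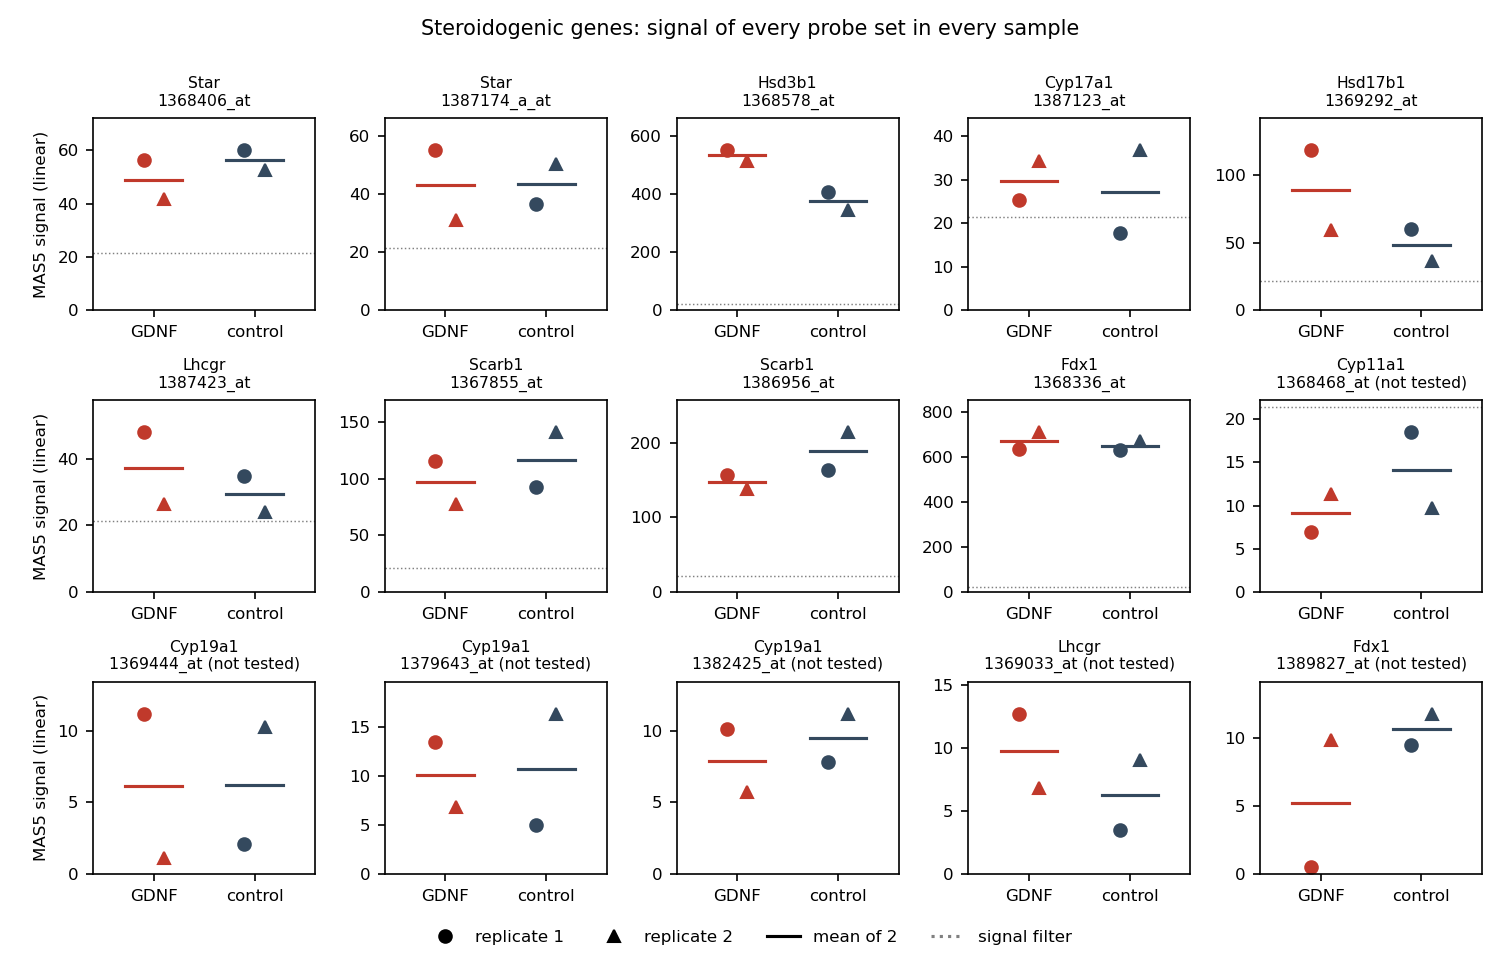
MAS5 signal (linear, each panel with its own axis from 0) of the 15 probe sets in each sample, GDNF left and control right; circles are replicate 1, triangles replicate 2, bars the mean of 2 and the dotted line the signal filter of about 21.4. Hsd3b1 and the brighter Scarb1 probe set, 1386956_at, are the 2 panels in which both GDNF samples lie on the same side of both controls.

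The supply of cholesterol was measured by both probe sets of Scarb1 and both of Star. The brighter Scarb1 probe set, 1386956_at, had a signal of 156.3 and 138.7 in GDNF samples and 163.2 and 214.4 in control samples. Both GDNF samples lay below both controls, but GDNF replicate 1 was close to control replicate 1. The log2 fold change was -0.34 (SE 0.17, 95% interval -0.75 to 0.064, limma adjusted p = 0.9994). It was -0.15 without control replicate 2, which had the highest signal. The other Scarb1 probe set, 1367855_at, had 115.9 and 78 in GDNF samples and 92.4 and 141.1 in control samples, so the groups overlapped. Its log2 fold change of -0.26 (SE 0.27) turned to 0.041 without control replicate 2 and 0.021 without GDNF replicate 2.

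Star had 56.3 and 41.8 in GDNF samples and 60.1 and 52.8 in control samples in probe set 1368406_at. The groups overlapped, with GDNF replicate 2 lowest. The log2 fold change was -0.21 (SE 0.23, 95% interval -0.76 to 0.33), and without GDNF replicate 2 it was -0.00085. In the other Star probe set, 1387174_a_at, the signal was 55 and 31.1 in GDNF samples and 36.5 and 50.2 in control samples. There the GDNF samples held both the highest and the lowest value, and the log2 fold change was -0.048 (SE 0.33). It turned to 0.18 without control replicate 2 and 0.35 without GDNF replicate 2.

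The side-chain cleavage step has Cyp11a1 and its electron donor Fdx1. Cyp11a1 had 7 and 11.3 in GDNF samples and 18.5 and 9.7 in control samples. These signals lay below the filter in all 4 samples, overlapped, and were not tested. Fdx1, the ferredoxin, was bright and even, with 634.8 and 712.8 in GDNF samples and 634.6 and 670.5 in control samples in probe set 1368336_at. Its log2 fold change of 0.044 (SE 0.11) had the narrowest 95% interval of the members, -0.21 to 0.30, or 0.86-fold to 1.23-fold. The value turned to -0.039 without GDNF replicate 2. A second Fdx1 probe set, 1389827_at, was below the filter, at 0.5 and 9.9 in GDNF and 9.5 and 11.8 in control samples.

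Hsd3b1, the enzyme after Cyp11a1, had a signal of 550.4 and 514.5 in GDNF samples and 405.3 and 344.4 in control samples. Both GDNF samples lay above both controls, by more than the range within either group. The means were 532.5 ± 25.4 in GDNF and 374.9 ± 43.1 in control ovaries (SD, n = 2 each). The log2 fold change was 0.51 (SE 0.12, 95% interval 0.22 to 0.80), with the 27th smallest limma p of all probe sets tested (adjusted p = 0.9994). With each sample left out in turn it ran from 0.39 to 0.63. RefSeq places Hsd3b1 beside its paralogs Hsd3b2 and Hsd3b3 on chromosome 2 of GRCr8, and how far transcripts of the paralogs bind these probes was not tested. Hsd3b1 is also made in the adrenal cortex, and the other 4 adrenal markers with a probe set (of 7 listed), Cyp11b1, Cyp21a1, Mrap and Akr1b7, were between 0.6 and 8.7 in every sample, all below the filter. At these low signals Cyp21a1 (1.5 and 6 against 1.1 and 1.3) and Mrap (2.2 and 2.4 against 0.8 and 0.6) lay higher in GDNF without overlap. Cyp11b1 and Akr1b7 overlapped. Whether adrenal tissue adds to the Hsd3b1 signal was not tested.

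Cyp17a1, the androgen-forming enzyme of theca and interstitial cells, was near the filter, with 25.3 and 34.3 in GDNF samples and 17.8 and 36.8 in control samples. The controls held the lowest and the highest value. The log2 fold change was 0.19 (SE 0.39, 95% interval -0.72 to 1.11), and it turned to -0.31 without control replicate 1 and to -0.020 without GDNF replicate 2. Lhcgr had 48 and 26.3 in GDNF samples and 34.9 and 24.1 in control samples in its tested probe set, 1387423_at. GDNF replicate 1 was the highest and the other 3 overlapped, for a log2 fold change of 0.29 (SE 0.36, 95% interval -0.56 to 1.12) that was 0.027 without control replicate 2 and turned to -0.14 without GDNF replicate 1. The other Lhcgr probe set, 1369033_at, was below the filter, at 12.7 and 6.8 in GDNF and 3.5 and 9 in control samples. Insl3, a hormone of mature theca cells, was at 1.3 and 4.1 in GDNF and 2.1 and 4.1 in control samples.

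The estrogen-forming end of the pathway showed 1 enzyme above the filter. Hsd17b1 had 118.3 and 59 in GDNF samples and 60.3 and 36.2 in control samples. GDNF replicate 1 stood far above the rest, while GDNF replicate 2 lay just below control replicate 1. The log2 fold change was 0.83 (SE 0.37, 95% interval -0.054 to 1.70, limma adjusted p = 0.9994), with 0.33 without GDNF replicate 1, 0.46 without control replicate 2 and 1.32 without GDNF replicate 2. The 7 granulosa markers other than Hsd17b1 and Cyp19a1 summed to 4210 and 3822 in GDNF samples and 3821 and 3268 in control samples, highest in GDNF replicate 1 and lowest in control replicate 2 as Hsd17b1 was. Of these 7, 6 had a higher mean log2 signal in GDNF samples, 4 of them without overlap (13.8% of all genes tested). Among the 6, Fst was close to 0, with a log2 fold change of 0.0045 (SE 0.15). Its linear mean was lower in GDNF, 655.9 against 660.6. The seventh, Amhr2, the receptor of anti-Müllerian hormone, lay lower without overlap (18.1% of all genes), at 736.3 and 823.3 in GDNF and 967.6 and 887.7 in control samples. The part of these markers in the Hsd17b1 result was not tested.

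Cyp19a1 was dim in all 3 of its probe sets. Probe set 1379643_at had 13.4 and 6.8 in GDNF samples and 5 and 16.3 in control samples. Probe set 1369444_at had 11.2 and 1.1 in GDNF and 2.1 and 10.3 in control samples, and 1382425_at had 10.1 and 5.7 against 7.8 and 11.2. In all 3 the groups overlapped, and GDNF replicate 1 and control replicate 2 held the higher values. None reached the filter, so no difference in aromatase was detectable at this signal.

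**Figure D2:**
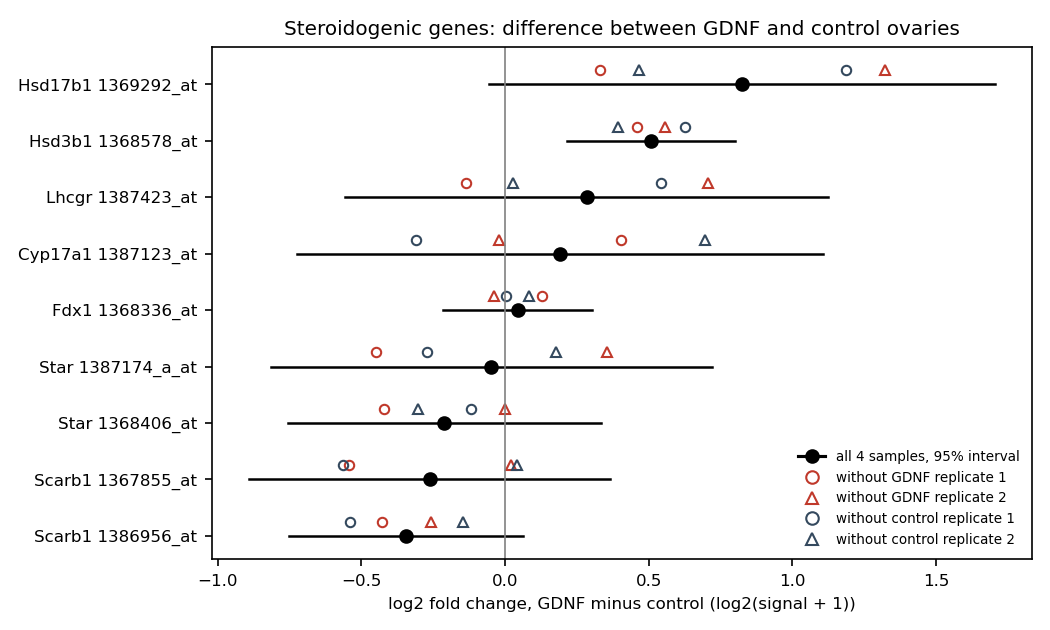
Log2 fold change, GDNF minus control, of the 9 probe sets tested, with black points and lines for limma's estimate and 95% interval over all 4 samples; open symbols give the value with 1 sample left out. Hsd3b1 is the 1 probe set whose interval lies above 0, and Hsd17b1 spreads from 0.33 to 1.32 as samples are left out.

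The members did not share an order of the samples. Hsd17b1 and the tested Lhcgr probe set had the same order, from low to high control replicate 2, GDNF replicate 2, control replicate 1 and GDNF replicate 1, as did 4.23% of all probe sets tested. Both replicate 1 samples lay above both replicate 2 samples for 3 of the 9 probe sets (22.6% of all tested), and the reverse held for 2, those of Cyp17a1 and Fdx1 (20.9%). GDNF replicate 2 was lowest for 4 of the 9 (31.8% of all tested) and GDNF replicate 1 highest for 4 (27.3%). What the replicate number stands for is not labelled.

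Around these members, 97 related genes were listed in 5 groups, of which 85 had a probe set and 71 were tested by the brightest probe set of each gene. None passed (0 of 71), and 0.0% of the 10608 genes tested passed in all. Their mean log2 signals were higher in GDNF for 32 and lower for 39, with a median log2 fold change of -0.023. Groups did not overlap for 10 on the higher side and 17 on the lower side, beside 13.8% and 18.1% of all genes. At an unadjusted limma p below 0.05 there were 4 of 71, beside 3.12% of all genes: Nr5a2, Tspo, and Prkar2b and Hsd17b2, these last named after their values were seen.

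Of 26 regulators tested, 15 had their higher mean in GDNF and 11 in control samples. Nr5a2, a nuclear receptor of granulosa cells, had 415.9 and 348.7 in GDNF samples and 293.9 and 220.7 in control samples. The groups did not overlap, and the log2 fold change was 0.58 (SE 0.17, limma adjusted p = 0.9994), with 0.65 and 0.31 in its dimmer probe sets, where the groups overlapped. Without GDNF replicate 1 these were 0.075 and -0.57. Nr5a1, the steroidogenic factor 1 gene, had 94.1 and 106.7 in GDNF samples and 136.3 and 105.9 in control samples, which overlapped (-0.26, SE 0.18, and -0.079 without control replicate 1). Nr0b1, a repressor of Nr5a1, had a log2 fold change of 0.034 (SE 0.26) and turned to -0.28 without GDNF replicate 2 and to -0.023 without control replicate 1. The highest regulator was the phosphodiesterase Pde4d, near the filter at 40.8 and 19.6 in GDNF and 12.3 and 22.6 in control samples. Its control mean of 17.45 lay below the filter signal of about 21.4, and GDNF replicate 1 alone lay far above it. The log2 fold change of Pde4d was 0.73 (SE 0.45), or 0.22 with GDNF replicate 1 left out and 0.44 with a pseudocount of 16. The lowest was the transcription factor Gata6, at 304.1 and 199.1 in GDNF and 324.7 and 305 in control samples (-0.35, SE 0.20), which was -0.049 without GDNF replicate 2. A dimmer Gata6 probe set had -0.076 and turned to 0.47 without control replicate 1 and 0.28 without GDNF replicate 2.

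Of the 9 genes of electron transfer and cofactors, 2 had their higher mean log2 signal in GDNF and 7 in control samples. H6pd, counted as higher, had a log2 fold change of 0.035 (SE 0.26) and a lower linear mean in GDNF, 103.7 against 105.2. Tspo, a cholesterol and porphyrin binding protein of the outer mitochondrial membrane, was the lowest, with 503 and 615.4 in GDNF samples and 700.8 and 682 in control samples. The groups did not overlap (log2 fold change -0.31, SE 0.13, 95% interval -0.61 to -0.016). Por, which passes electrons to Cyp17a1 and Cyp19a1, had 115.7 and 114.1 in GDNF and 121.6 and 140.6 in control samples (-0.19, SE 0.15, and -0.081 without control replicate 2). A dimmer Por probe set overlapped, at 68.2 and 35.2 in GDNF and 62.4 and 57.9 in control samples (-0.29, SE 0.32). It turned to 0.18 without GDNF replicate 2. The cytochromes Cyb5a (-0.025, SE 0.12) and Cyb5b (0.041, SE 0.17) overlapped between groups. Without control replicate 1 they turned to 0.068 and -0.097, and without GDNF replicate 2 to 0.053 and -0.060. For Fdxr, the reductase of Fdx1, the annotation gave no probe set.

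Among 15 other steroid-converting enzymes 6 had their higher mean in GDNF and 9 in control samples. Akr1c14, a hydroxysteroid dehydrogenase, was the highest, with 376.5 and 225.4 in GDNF samples and 229.8 and 212.6 in control samples in its brightest probe set. GDNF replicate 1 stood above the other 3 samples (log2 fold change 0.40, SE 0.23, and 0.028 without it). In its 2 other probe sets the groups did not overlap, with log2 fold changes of 0.55 and 0.53. Hsd11b2, which inactivates glucocorticoids, was the lowest, at 96.1 and 58.3 in GDNF and 93.8 and 114.1 in control samples (-0.46, SE 0.26). It was -0.11 without GDNF replicate 2. Hsd17b2, which oxidises estradiol back to estrone, had 206.3 and 217.2 in GDNF and 261.7 and 256.6 in control samples (-0.29).

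Cholesterol uptake and traffic genes were spread around 0, with 9 of 17 higher and 8 lower in GDNF. The sterol exporter Abcg1 was the highest (0.20, SE 0.12), with -0.11 in a dimmer tested probe set. The hormone-sensitive lipase Lipe was the lowest, at 54.2 and 20.4 in GDNF and 48 and 43.5 in control samples (-0.44, SE 0.43), and it turned to 0.24 without GDNF replicate 2. Of the steroid receptors 4 were tested, all with a lower mean in GDNF, from Nr3c2 (-0.0086, SE 0.23) to Pgrmc2 (-0.19, SE 0.12). Nr3c2 turned under quantile normalization (0.0047), median centring (0.0078), and without GDNF replicate 1 (0.12) or control replicate 2 (0.073). Pgrmc2 was -0.085 without GDNF replicate 2. Its dimmer probe sets had -0.27, without overlap, and 0.070, which turned to -0.060 without GDNF replicate 1 and to -0.00079 without control replicate 1. The nuclear receptors Esr1, Esr2 and Pgr were below the filter. Esr2 had 1.6 and 1.5 in GDNF and 10.1 and 4.4 in control samples, Esr1 had 2.8 and 0.7 against 10.5 and 1.4, and Pgr had 22.9 and 8.9 against 17.6 and 13.5.

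**Figure D3:**
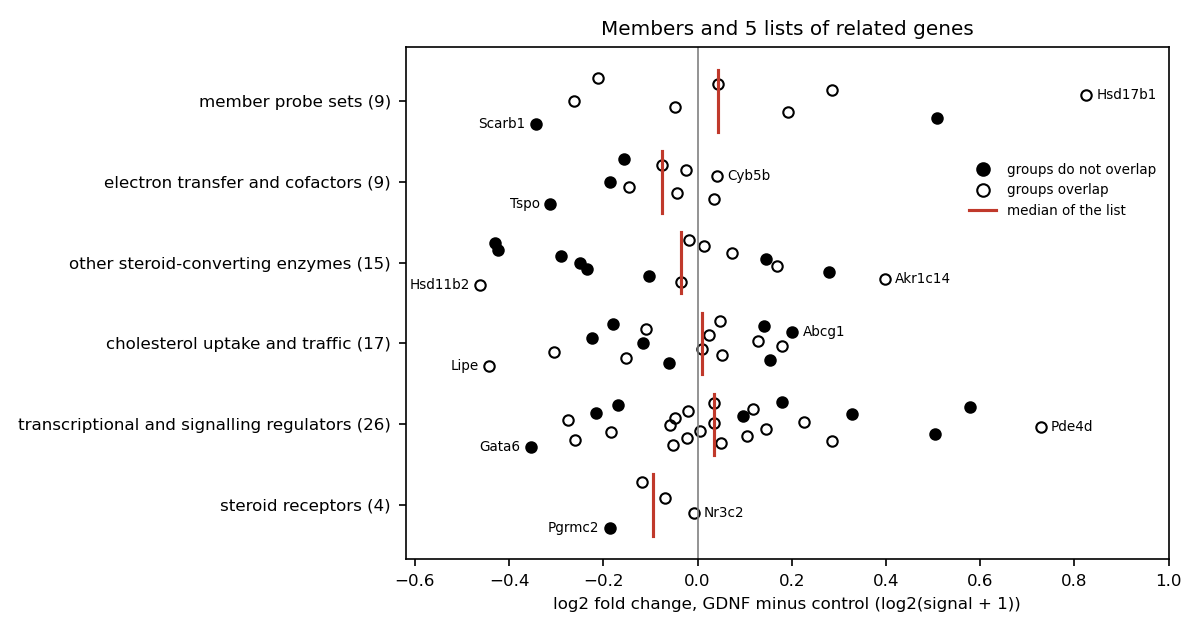
Log2 fold change, GDNF minus control, of the 9 member probe sets and of the tested genes of 5 lists (number in brackets); filled points are probe sets whose groups did not overlap, red bars the median of each list, and the vertical position within a list has no meaning. The medians lie close to 0, from -0.094 for steroid receptors to 0.044 for the members.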

How the data were processed

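The authors made the deposited intensities with MAS5 (version not given), per the submitters' processing notes. They are linear signals that combine perfect-match and mismatch probes. Each array had a 2% trimmed mean of 125.03 to 125.04, and a change in total RNA would not show. The 57 control probe sets were left out of 31099. Symbols came from GEO's platform annotation: 20826 probe sets had 1 symbol, 436 several and 9780 none in that table. Detection calls were not used here.

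Signals became log2(signal + 1). GDNF was set against control with limma 3.58.1 (R 4.3.3; lmFit, then eBayes with trend), two-sided, with Benjamini-Hochberg adjustment over all probe sets tested. The procedure was tested on simulated data with changes larger than those of the members tested. How well it finds changes of the members' size was not tested. Fold changes on this scale understate the change of dim genes. Values after ± are SDs of linear signals (n = 2), and ratios of means are linear too. Counts of genes or probe sets with a higher or lower mean use means of log2(signal + 1).

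The members, gene lists and the rule for named genes (each list's highest and lowest tested gene plus 11 fixed genes, of which 9 had a probe set) were chosen with earlier results of these data known. The lists were 5 of related genes and 7 of cell markers. Theca marker sums, over 5 of 6 markers, were 214.9 and 172.8 in GDNF and 202.8 and 193.6 in control samples. They include the members Star, Cyp17a1 and Lhcgr and so are not independent of them. The alternatives tried were quantile normalization, median centring, a pseudocount of 16, the filter dropped or moved to the 60th percentile, no trend, a replicate block, and each sample left out.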

Additional observations from a re-analysis of the deposited data

How the results depend on the processing

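No member and no related gene passed an adjusted p of 0.05 under any of the 11 alternatives, and over all probe sets 8 passed with the replicate number as a replicate block, where 0 passed in each of the others and with each sample left out (0 to 0). With that block the adjusted p (limma) was 0.1 for Hsd3b1, 0.185 for Hsd17b1 and 0.075 for the related gene Nr5a2. The replicate 1 minus replicate 2 difference in GDNF correlated with that in control samples at r = 0.323 across probe sets, with 2 pairs, too few to show that the numbers pair the samples. Leaving out a sample leaves 1 in its group, assumed to vary like the other group. Of 24 single results under the alternatives (255 values), 236 kept their direction and 19 turned, 17 of these with a sample left out. With a sample left out the values ran from -0.45 to 0.35 for Star 1387174_a_at, -0.31 to 0.70 for Cyp17a1, -0.14 to 0.71 for Lhcgr, -0.56 to 0.041 for Scarb1 1367855_at, -0.039 to 0.13 for Fdx1, -0.12 to 0.068 for Cyb5a, -0.097 to 0.18 for Cyb5b, -1.13 to 0.24 for Lipe, -0.28 to 0.34 for Nr0b1 and -0.14 to 0.12 for Nr3c2. Nr3c2 also turned with quantile normalization (0.0047) and median centring (0.0078). The cause was not tested. Low signals, where MAS5 subtracts a mismatch estimate, limit what Cyp11a1, Cyp19a1 and the estrogen receptors can show.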

Other observations

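Some other steroid-converting enzymes outside the rule for named genes, named after their values were seen, also had groups that did not overlap. Of the 15 tested, 2 lay higher in GDNF and 6 lower without overlap, beside 13.8% and 18.1% of all genes. Those whose values are not given are Hsd17b11, higher, and Srd5a3, Hsd11b1 and Sts, lower. Sult1a1, a sulfotransferase, had 157.4 and 136.3 in GDNF samples and 237.3 and 163.1 in control samples. Cyp1b1, which hydroxylates estradiol, had 1072 and 931.1 in GDNF and 1272 and 1111 in control samples. Akr1c19, a relative of Akr1c14, had 228.9 and 253.4 in GDNF and 185.1 and 212.5 in control samples. Outside these enzymes there was Prkar2b, a regulatory subunit of the cyclic AMP-dependent kinase. It had 822.9 and 825.7 in GDNF and 664.6 and 648 in control samples (log2 fold change 0.33, limma adjusted p = 0.9994). The dimmer probe set of Lipe, below the filter, had 6.3 and 7.3 in GDNF and 32.4 and 23.2 in control samples, with no overlap, while its brightest probe set overlapped.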
